A study of Rattus norvegicus with 64 samples.

Results

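The genes described here were 10 CC chemokines, Ccl2, Ccl3, Ccl4, Ccl5, Ccl6, Ccl7, Ccl11, Ccl19, Ccl20 and Ccl22. They were chosen by symbol, by matching the RefSeq accession of each array probe to rat gene names. All 10 were found among 15715 named genes on the array. They were read by 11 of the 30367 gene probes, with 1 probe for 9 of the genes and a pair for Ccl20, for which the brighter probe was used unless the other is named. The lower Ccl4 signal with ASCs at day 30 was known when the genes were chosen, so its test is given as a description.

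Urinary bladders of male Wistar rats were partly removed (hemicystectomy) and augmented with a graft. The graft was bladder acellular matrix (BAM), the wall of a bladder from which the cells had been washed out, either alone or seeded with adipose tissue-derived stromal cells (ASCs, named ADSCs in the sample labels). The ASCs came from retroperitoneal fat of syngeneic male Wistar rats aged 10 weeks and were grown to the third passage, while the age of the operated rats was not given in the sources used here. Total RNA of the reconstructed wall was hybridized at 7, 30, 90 and 180 days, with 8 arrays, 1 rat each, in every graft and day group and 64 arrays in all. According to the methods, the 8 samples of a group were picked from 10, and RNA with an integrity number not above 7 was left out. Both arms carried a BAM graft, unoperated bladder was not analysed here, and RNA of the seeded cells could not be told apart from RNA of the host.

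CC chemokines are small secreted proteins that draw leukocytes into tissue through receptors on the leukocyte surface. Ccl2 and Ccl7 act on Ccr2 and attract monocytes, whereas Ccl3, Ccl4 and Ccl5 attract macrophages and effector T cells, with Ccl3 and Ccl5 acting on Ccr1. Ccl11 (eotaxin) acts on Ccr3 of eosinophils, Ccl19 on Ccr7 of dendritic cells and naive T cells, Ccl20 on Ccr6 and Ccl22 on Ccr4 of T helper and regulatory T cells. In wounds they are made by macrophages, lymphocytes, fibroblasts and epithelium, and several of their genes are induced through NF-κB.

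Values are log2 of the spot intensity minus the 75th percentile of the array, so that 0 is the 75th percentile and 1 unit is a doubling. Levels are compared between groups for 1 probe at a time and not between genes. Each of the 8 slides held 1 group, so the slide cannot be told apart from the group. The slides of days 7 and 30 were scanned on one date and those of days 90 and 180 on another, so the step from day 30 to day 90 and the scan date cannot be told apart, while both grafts of a day shared a date. The share of gene spots well above background was 73.28% to 95.58% on arrays of days 7 and 30 and 35.54% to 64.59% on arrays of days 90 and 180. Of the 64 arrays, 64 showed Ccl6, Ccl11 and Ccl19 well above background, 63 Ccl2 and Ccl5, 61 Ccl3 and Ccl7, 58 Ccl22, 49 Ccl4 and 37 Ccl20, and no probe of the 10 genes was saturated. As a check of the tissue, all 7 urothelial and all 7 smooth muscle markers with a probe were well above background on at least 1 array in every group.

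Promoter sequences were at hand in the RefSeq-derived table (build GRCr8) for 5 of the 10 genes, Ccl6, Ccl7, Ccl19, Ccl20 and Ccl22. Pairs are shown whose signals moved together among arrays of the same group, Ccl6 with Ccl7 and Ccl20 with Ccl22. Each window runs 5′ to 3′ on the gene's strand, from 250 bases before to 50 bases after the start. Capitals mark matches, on either strand, to an NF-κB site (GGGAA and CC with any 3 bases between them), an AP-1 site written TGANTCA or a TATA box written TATAAA. The windows are chr10:68883317-68883616, minus strand (Ccl6), chr10:67513845-67514144, plus strand (Ccl7), chr9:91836909-91837208, plus strand (Ccl20), and chr19:10270310-10270609, minus strand (Ccl22).
Ccl6: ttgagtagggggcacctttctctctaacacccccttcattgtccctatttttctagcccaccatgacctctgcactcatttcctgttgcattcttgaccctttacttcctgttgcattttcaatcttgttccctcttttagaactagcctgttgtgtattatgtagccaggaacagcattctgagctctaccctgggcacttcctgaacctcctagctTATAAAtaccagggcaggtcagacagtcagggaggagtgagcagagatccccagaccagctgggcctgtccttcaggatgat
Ccl7: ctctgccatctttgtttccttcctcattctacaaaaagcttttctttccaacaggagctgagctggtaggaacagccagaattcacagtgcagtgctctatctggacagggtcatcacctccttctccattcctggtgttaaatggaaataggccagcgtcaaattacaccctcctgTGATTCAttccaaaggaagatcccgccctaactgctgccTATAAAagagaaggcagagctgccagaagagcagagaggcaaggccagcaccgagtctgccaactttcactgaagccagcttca
Ccl20: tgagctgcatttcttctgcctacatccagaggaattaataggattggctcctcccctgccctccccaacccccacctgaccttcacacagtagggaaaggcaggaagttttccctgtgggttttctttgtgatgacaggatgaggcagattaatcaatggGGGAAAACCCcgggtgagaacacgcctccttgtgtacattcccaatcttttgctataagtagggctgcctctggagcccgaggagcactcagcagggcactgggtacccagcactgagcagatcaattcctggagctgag
Ccl22: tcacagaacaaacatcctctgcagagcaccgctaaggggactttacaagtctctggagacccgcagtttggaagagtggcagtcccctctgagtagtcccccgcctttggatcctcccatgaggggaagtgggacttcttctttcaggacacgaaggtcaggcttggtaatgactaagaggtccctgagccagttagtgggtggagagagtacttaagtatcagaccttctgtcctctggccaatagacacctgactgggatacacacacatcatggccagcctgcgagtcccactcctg
Ccl20 held the NF-κB match GGGAAAACCC, and the Ccl19 window, which is not printed, held GGGAAGACCC. Such a match was present in 6.01% of all 33469 promoter windows of the same length. Ccl7 held an AP-1 match, present in 7.33% of all windows, and Ccl6 and Ccl7 each held a TATA box, present in 14.2%. None of these letters were in the Ccl22 window.

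The comparison of BAM seeded with ASCs with BAM only asks how seeding changed the healing wall at each day. In limma over all 64 arrays, with p adjusted by Benjamini-Hochberg, a gene was called when the adjusted p was under 0.01 and the groups differed over 1.5-fold, and none of the 10 chemokines was called between grafts at day 7, 30, 90 or 180. Of all probes, 7.75%, 1.66%, 12.6% and 2.42% were called at these days. At an unadjusted p below 0.05 the counts were 1, 4, 0 and 0 of 10, beside 29.3%, 25.8%, 48.1% and 14.1% of all probes. The methods' two-way model with ordinary variance called 0 at each day. The 4 at day 30 were all lower with ASCs, Ccl2, Ccl4, Ccl5 and Ccl7, and the 1 at day 7 was Ccl11, higher with ASCs. Over the 10 genes the median log2 difference was -0.48, -0.78, -0.57 and 0.21 at days 7, 30, 90 and 180, beside -0.17, 0.11, -0.28 and 0.05 over all probes. Of the 10, 8, 7, 8 and 4 had a lower mean with ASCs, beside 69.3%, 37.0%, 67.4% and 41.1% of all probes.

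**Figure D1:**
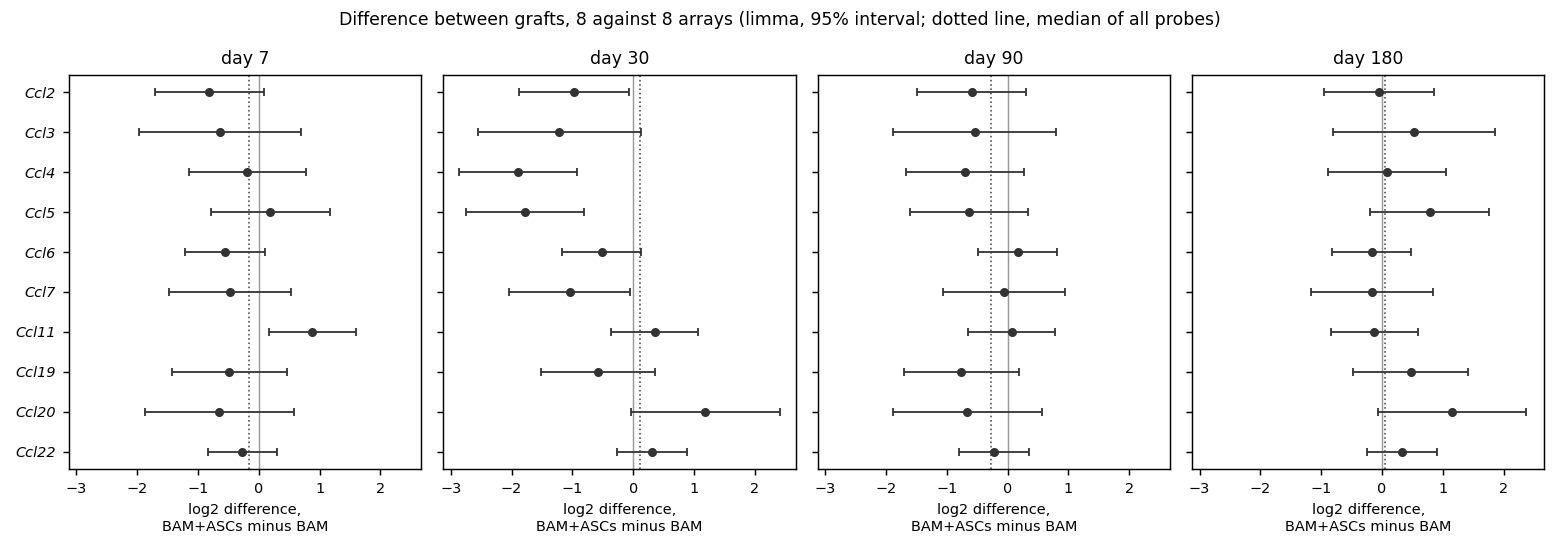
Log2 difference of BAM with ASCs minus BAM only (x axis) for each of the 10 CC chemokines (y axis) at day 7, 30, 90 and 180, with the 95% interval from limma's standard error (n = 8 arrays per group). The dotted line is the median of all probes. At day 30 the intervals of Ccl2, Ccl4, Ccl5 and Ccl7 lie below 0, and none of the 10 passed the adjusted threshold at any day.

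Among the attractants of macrophages and T cells, the largest differences between grafts stood at day 30. Ccl4, also known as MIP-1β, is made by activated macrophages and lymphocytes. At day 30 its log2 signal had its lowest, median and highest value at -0.82, -0.28 and 0.80 with BAM only and at -3.69, -2.19 and -0.59 with ASCs. The means were -0.20 ± 0.50 and -2.09 ± 1.14 (SD, n = 8 each), and 7 of the 8 arrays with ASCs lay below every BAM array. The difference was -1.90 (SE 0.48, 95% interval -2.86 to -0.93), or 3.72-fold lower, and with an adjusted p = 0.0100008 (limma) it missed the threshold of 0.01 narrowly. It was called in 7 of 14 alternatives, with adjusted p from 0.00120 to 0.0522 over all of them. Among the 7 were an adjusted p below 0.05 with no fold threshold, where the p was unchanged, and median centring, chosen after seeing the data. With outlier spots kept, dim probes left out, the replicate block or 1 probe per named gene the difference stayed at -1.90. There the adjusted p moved from just above to just below 0.01. All 7 reuse the same arrays, so their number is not independent support. The difference also passed when BAM+ASCs replicate 3, 4 or 5 was left out (adjusted p = 0.00674, 0.00442 and 0.00614). These were the seeded arrays with the highest Ccl4, so leaving any of them out widens the difference. With each of the 16 arrays left out in turn, the adjusted p ran from 0.00442 to 0.0362 (limma). BAM at day 30 was the highest of the 8 groups for Ccl4, and it exceeded the next, BAM at day 7 (-1.59 ± 1.14, n = 8), by 1.39, more than either SD. The other neighbors in the order of the 8 groups, down to BAM at day 180 (-3.79 ± 1.03, n = 8), differed by less than the larger SD of the pair.

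Ccl5 (RANTES), a product of T cells and NK cells, was lower with ASCs at day 30 by a similar amount, but its groups overlapped widely. Its lowest, median and highest value was -0.02, 2.34 and 4.41 with BAM only and -0.96, 0.13 and 2.41 with ASCs, with 3 of 8 arrays with ASCs below every BAM array. The difference of the means, 2.05 ± 1.57 and 0.27 ± 1.09 (SD, n = 8 each), was -1.78 (SE 0.49), or 3.44-fold lower, with an adjusted p = 0.0166 (limma). It passed when BAM+ASCs replicate 4, BAM replicate 2 or BAM replicate 8 of day 30 was left out (adjusted p = 0.00426, 0.00712 and 0.00860). These were the highest array with ASCs and the lowest arrays with BAM only, so leaving any of them out widens the difference. With each of the 16 arrays left out in turn, the adjusted p ran from 0.00426 to 0.0501 (limma). At day 180 the order was turned, with BAM only between -1.12 and -0.34 and BAM with ASCs between -0.81 and 1.32, and 5 of the 8 seeded walls exceeded every BAM array. That difference, 0.79 (SE 0.49), was not called (adjusted p = 0.54, limma). Ccl5 had no pair of neighbors in the order of the 8 groups that differed by more than the larger SD.

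Ccl3 (MIP-1α), a macrophage product that acts on Ccr1, was at 2.48 ± 0.59 with BAM only and 1.27 ± 0.80 with ASCs at day 30 (SD, n = 8 each). With 6 of 8 arrays with ASCs below every BAM array, the difference was -1.21 (SE 0.67) and the adjusted p = 0.241 (limma). Ccl2 (MCP-1) had its lowest, median and highest value at 1.54, 2.28 and 2.99 with BAM only and at 0.44, 1.27 and 2.13 with ASCs. Its difference was -0.98 (SE 0.45, adjusted p = 0.159, limma). Ccl7 (MCP-3) was at 0.19, 0.58 and 1.98 with BAM only and at -1.27, -0.19 and 0.92 with ASCs, with 7 of 8 arrays with ASCs below every BAM array and a difference of -1.05 (SE 0.50, adjusted p = 0.174, limma). All 3 were lower on average with ASCs at day 30 and none was called. When the 2 groups of day 30 were fitted on their own, the adjusted p of Ccl2 was 0.0241 and that of Ccl7 was 0.0382, also above 0.01.

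Markers of monocytes and macrophages had lower means with ASCs at day 30 as well. In bulk tissue, fewer cells of a type and less RNA per cell cannot be told apart. The mean level of the 10 monocyte and macrophage markers ran from 1.43 to 2.08 (median 1.73) with ASCs and from 2.05 to 2.72 (median 2.45) with BAM only. All 10 markers had a lower mean with ASCs, with a median difference of -0.72, and 0 of 10 were called. The 8 T cell markers ran from -3.71 to -1.87 with ASCs and from -3.02 to -0.61 with BAM only, the 6 NK and cytotoxic markers from -5.03 to -2.65 and from -4.63 to -0.91, and 0 were called in either list. Each marker of the 3 lists was well above background on at least 1 array of either group. The part of these cells in the chemokine differences was not tested.

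The test of whether the difference between grafts itself differed from day 7 to day 30 called none of the 10 genes, where 0.985% of all probes were called. At an unadjusted p below 0.05 the count was 3 of 10, beside 26.8% of all probes, and the two-way model called 0. For Ccl4 the difference moved by -1.71 (SE 0.68, adjusted p = 0.104, limma) and for Ccl5 by -1.97 (SE 0.69, adjusted p = 0.0666, limma). Ccl20 moved the other way, by 1.83 (SE 0.86, adjusted p = 0.161, limma). From day 90 to day 180 the difference of Ccl5 moved by 1.42 (SE 0.69, adjusted p = 0.119, limma). The intervals of these changes were wide, for Ccl4 from -3.07 to -0.34.

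At day 7 the monocyte attractants had overlapping levels in the 2 grafts. Ccl2 was at 2.10 ± 0.66 with BAM only and 1.29 ± 0.48 with ASCs, Ccl3 at 2.41 ± 0.69 and 1.77 ± 0.56, and Ccl7 at 1.07 ± 0.60 and 0.59 ± 0.53 (SD, n = 8 each). Ccl6, a macrophage and neutrophil product of rodents, was at 2.64 ± 0.50 and 2.08 ± 0.32 (SD, n = 8 each), with 4 of 8 arrays with ASCs below every BAM array. These 4 differences were -0.81, -0.64, -0.47 and -0.55, with adjusted p from 0.229 to 0.57 (limma). Ccl11 differed in the other direction, with its lowest, median and highest value at 1.89, 2.28 and 3.05 with ASCs and at -0.89, 1.56 and 4.22 with BAM only. The difference was 0.88 (SE 0.36, adjusted p = 0.0793, limma). BAM replicate 2 held the value of 4.22, and without it the difference was 1.27 with an adjusted p = 0.00269, past the threshold. With each of the 16 arrays left out in turn, the difference ran from 0.54 to 1.27 and the adjusted p from 0.00269 to 0.342 (limma).

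Within each graft, Ccl2, Ccl3, Ccl4 and Ccl7 had higher means at days 7 and 30 than at days 90 and 180. With ASCs, Ccl6 was already at 0.79 at day 30, beside 0.45 and 0.49 at days 90 and 180. Ccl5 with ASCs was at 0.27 at day 30, beside -0.26 and 0.01. From day 30 to day 90, 6 of the 10 fell with BAM only, Ccl2, Ccl3, Ccl4, Ccl5, Ccl6 and Ccl7, and 4 fell with ASCs, Ccl2, Ccl3, Ccl4 and Ccl20 (limma). Of all probes, 9.4% were called lower in this step with BAM only and 10.3% with ASCs, and none of the 10 genes was called higher, beside 35.3% and 17.8% of all probes. The median difference over the 10 was -1.35 with BAM only and -0.98 with ASCs, beside 0.30 and 0.11 over all probes. The scan date changed with this step, and the mean local background of the arrays went from 50.12 to 345.3 with BAM only and from 50.44 to 108.2 with ASCs, in intensity units.

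**Figure D2:**
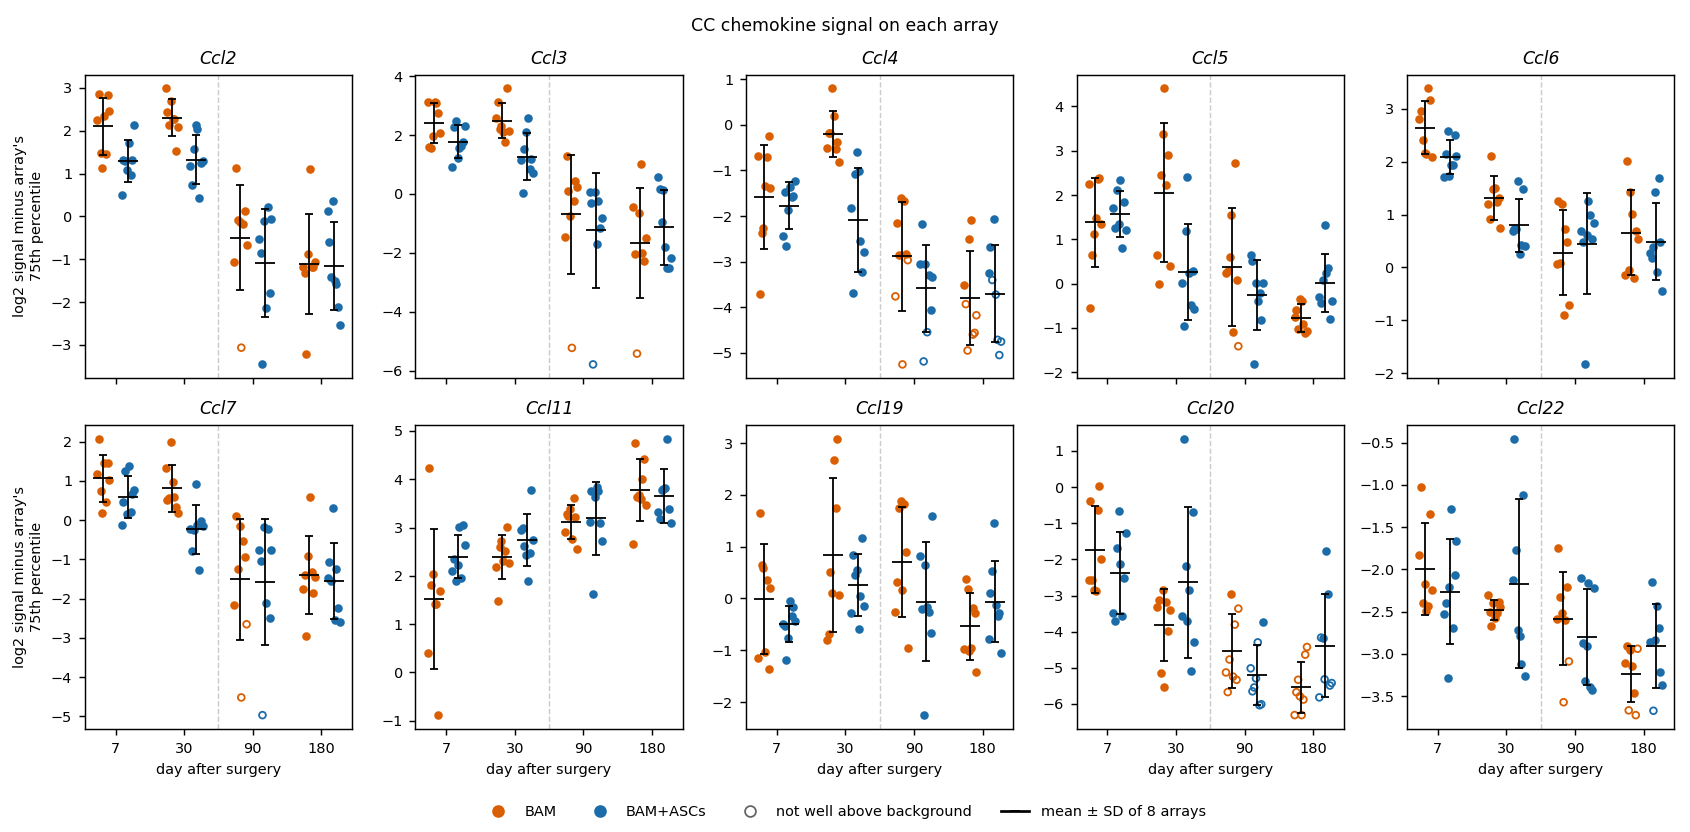
Log2 signal minus the array's 75th percentile (y axis) of each CC chemokine on every array, by day after surgery (x axis) and graft, with the mean and SD of 8 arrays. Open points were not well above background, and the dashed line separates the 2 scan dates. Ccl2, Ccl3 and Ccl7 step down between day 30 and day 90 in both grafts, and the mean of Ccl11 is highest at day 180.

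Ccl2, the main attractant of Ccr2-bearing monocytes, had its lowest, median and highest value at 1.54, 2.28 and 2.99 at day 30 and at -3.06, -0.16 and 1.14 at day 90 with BAM only. With ASCs these were 0.44, 1.27 and 2.13 at day 30 and -3.45, -0.69 and 0.23 at day 90. In both grafts every array of day 90 lay below every array of day 30. Ccl2 fell 6.95-fold with BAM only (log2 difference -2.80, SE 0.45, adjusted p = 3.34e-07, limma) and 5.33-fold with ASCs (-2.41, SE 0.45, adjusted p = 1.36e-05, limma). Among the 8 groups its order was BAM at day 30, BAM at day 7, BAM with ASCs at day 30 and at day 7, and then the groups of days 90 and 180. Of the neighbors in this order, those that differed by more than the larger SD were BAM at day 7 from BAM with ASCs at day 30, by 0.78, and BAM with ASCs at day 7 from BAM at day 90, by 1.79.

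Ccl3 fell 9.04-fold with BAM only (log2 difference -3.18, SE 0.67, adjusted p = 4.10e-05, limma) and 5.68-fold with ASCs (-2.51, SE 0.67, adjusted p = 0.00155, limma). Its values at day 90 ran from -5.23 to 1.29 with BAM only and from -5.79 to 0.06 with ASCs. One array in each group stood far below the rest, BAM replicate 5 and BAM+ASCs replicate 3. The same arrays had the lowest level of the 10 monocyte and macrophage markers, -0.14 and -1.29, while the other arrays of day 90 ran from 0.81 to 2.10. BAM+ASCs replicate 3 had the lowest signal of its group in 8 of the 10 chemokines, and BAM replicate 5 in 6 of the 10. Without BAM+ASCs replicate 3 the fall of Ccl3 with ASCs was -1.86 with an adjusted p = 0.0107, and that of Ccl4 was -1.26 with an adjusted p = 0.0298, neither past the threshold.

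Ccl7, a neighbor of Ccl2 in function, fell 4.98-fold with BAM only (log2 difference -2.32, SE 0.50, adjusted p = 6.18e-05, limma), and the 2 groups did not overlap. With ASCs the difference was -1.33 (SE 0.50, adjusted p = 0.0235, limma), which was not called. Ccl4 fell 6.44-fold with BAM only (log2 difference -2.69, SE 0.48, adjusted p = 2.83e-06, limma), from the high level of day 30 to values between -5.25 and -1.60. With ASCs, where day 30 was already low, Ccl4 fell 2.81-fold (log2 difference -1.49, SE 0.48, adjusted p = 0.00856, limma). This last call was lost when any 1 of 8 arrays was left out, namely BAM+ASCs replicates 1, 3, 4 and 5 of day 30 and 3, 5, 7 and 8 of day 90, with adjusted p from 0.0102 to 0.0298. Ccl5 fell 3.19-fold with BAM only (log2 difference -1.67, SE 0.49, adjusted p = 0.00236, limma) and was at -0.53 (SE 0.49, adjusted p = 0.377, limma) with ASCs. The Ccl5 call was lost without BAM replicate 5 of day 30 or BAM replicate 8 of day 90 (adjusted p = 0.0133 and 0.0106). Whether the step differed between grafts was tested directly, and none of the 10 genes was called by limma, where 10.1% of all probes were. At an unadjusted p below 0.05 the count was 1 of 10, beside 45% of all probes, and the two-way model called 0.

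Ccl6 differed from the other monocyte-related ligands by falling before day 30. It went from 2.64 ± 0.50 to 1.31 ± 0.41 with BAM only and from 2.08 ± 0.32 to 0.79 ± 0.50 with ASCs (SD, n = 8 each). The falls were 2.51-fold (adjusted p = 0.00176, limma) and 2.44-fold (adjusted p = 0.00268, limma), and with ASCs every array of day 30 lay below every array of day 7. The call with ASCs was lost without both day 30 arrays of wide detection, BAM+ASCs replicates 1 and 2 (-1.26, adjusted p = 0.0110, limma). With BAM only Ccl6 fell further to day 90, 2.05-fold (log2 difference -1.03, SE 0.33, adjusted p = 0.00489, limma). That later call was lost without BAM replicate 3 of day 30, BAM replicate 5 of day 90 or BAM replicate 8 of day 90 (adjusted p = 0.0152, 0.0196 and 0.0172). In the order of the 8 groups, BAM at day 7, BAM with ASCs at day 7 and BAM at day 30 each exceeded the next by more than the larger SD, and the remaining 5 groups, between 0.79 and 0.28, did not. Besides Ccl6, the step from day 7 to day 30 called Ccl20 with BAM only, so that 2 of 10 fell with BAM only and 1 of 10 with ASCs, beside 4.24% and 1.4% of all probes called lower.

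Ccl20 (MIP-3α), which epithelium makes and which acts on Ccr6 of T helper and B cells, was detected on the fewest arrays in the late groups and varied widely early on. With BAM only its lowest, median and highest value was -2.88, -2.28 and 0.04 at day 7 and -5.54, -3.36 and -2.86 at day 30. It fell 4.25-fold in this step (log2 difference -2.09, SE 0.61, adjusted p = 0.00918, limma), and 7 of 8 arrays of day 30 lay below every array of day 7. The call was lost when any 1 of 10 arrays was left out, BAM replicates 2, 6, 7 and 8 of day 7 and 1, 3, 5, 6, 7 and 8 of day 30, with adjusted p from 0.0101 to 0.0296. With ASCs the step of the mean was -0.25 (SE 0.61, adjusted p = 0.77, limma), while the median went from -2.32 to -3.21. The day 30 arrays with ASCs ran from -5.10 to 1.33. The 2 highest of them were replicates 2 (1.33) and 7 (-0.69), which also had the highest level of the 7 neutrophil markers, -2.28 and -1.73, in a group whose other arrays lay between -4.49 and -3.59. Replicate 2 was also an array of wide detection, with 86.17% of gene spots well above background. The part of neutrophils in the Ccl20 level was not tested.

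From day 30 to day 90 Ccl20 fell 5.91-fold with ASCs (log2 difference -2.56, SE 0.61, adjusted p = 0.000443, limma), to a level well above background on 1 of 8 arrays. The call was lost under normexp background correction (-1.21, adjusted p = 0.0243, limma) and when these 2 groups were fitted on their own (adjusted p = 0.0117, limma). The dimmer probe of Ccl20 was not well above background on any array of day 90. By that probe, Ccl20 was about 6.93-fold lower with ASCs at day 90 than at day 30 (adjusted p = 2.34e-05, limma). This fold was limited by the lowest signals counted as above background and is not a strict bound. With BAM only the brighter probe differed by -0.72 (SE 0.61, adjusted p = 0.31, limma). By the brighter probe the difference between grafts moved by -1.85 from day 30 to day 90 (SE 0.86, adjusted p = 0.0881, limma), which was not called, and by -0.56 under quantile normalization. The dimmer probe gives no measured value of this change, since both groups of day 90 were at background. At day 30 the difference between grafts was 1.19 (SE 0.61, adjusted p = 0.208, limma) by the brighter and 1.68 (SE 0.57, adjusted p = 0.0529, limma) by the dimmer probe. With each array left out in turn, the difference by the brighter probe ran from 0.62 to 1.54.

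Ccl22, which recruits Ccr4-bearing T cells and is made by dendritic cells and macrophages, showed a contrast in spread rather than in mean at day 30. With BAM only the 8 arrays lay between -2.67 and -2.30 (mean -2.48 ± 0.12), and with ASCs between -3.26 and -0.46 (mean -2.17 ± 1.00), with 4 arrays above and 4 below every BAM array. The highest Ccl22 arrays with ASCs were replicates 2 (-0.46) and 7 (-1.12), the same as for Ccl20, and replicate 2 was an array of wide detection. The difference of the means was 0.31 (SE 0.29, adjusted p = 0.52, limma), and the SDs were not compared by a test. No step between days was called for Ccl22, and no neighbors among its 8 group means, from -1.99 at day 7 to -3.24 at day 180 with BAM only, differed by more than the larger SD.

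Ccl11 and Ccl19, which stromal cells make, were not called in the step from day 30 to day 90 in either graft. The mean of Ccl11 was 1.52 ± 1.45, 2.38 ± 0.45, 3.12 ± 0.35 and 3.78 ± 0.64 at days 7, 30, 90 and 180 with BAM only, and 2.40 ± 0.45, 2.74 ± 0.54, 3.19 ± 0.75 and 3.65 ± 0.56 with ASCs (SD, n = 8 each). No single step was called, the largest being 0.86 from day 7 to day 30 with BAM only (SE 0.36, adjusted p = 0.082, limma). Ccl19 was highest in BAM at day 30, at 0.83 ± 1.49, with its lowest, median and highest value at -0.81, 0.30 and 3.08. From day 90 to day 180 with BAM only Ccl19 differed by -1.24 (SE 0.47, adjusted p = 0.0485, limma), which was not called. Of the 10 genes, 0 were called in this step in either graft, beside 9.39% of all probes with BAM only and 4.13% with ASCs. At an unadjusted p below 0.05 the counts were 3 and 0 of 10, beside 34.2% and 26.1% of all probes, and the two-way model called 0. Neither gene had neighbors in the order of the 8 groups that differed by more than the larger SD.

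At days 90 and 180 none of the 10 differences between grafts was called, and their intervals were wide. At day 90 they ran from -0.76 (Ccl19) to 0.17 (Ccl6), with 8 of 10 lower with ASCs, and at day 180 from -0.17 (Ccl6) to 1.15 (Ccl20), with Ccl5 at 0.79, Ccl3 at 0.53, Ccl19 at 0.47 and Ccl22 at 0.34. At day 180, Ccl2 was at -1.11 ± 1.16 with BAM only and -1.16 ± 1.03 with ASCs, Ccl7 at -1.39 ± 0.99 and -1.55 ± 0.96, and Ccl11 at 3.78 ± 0.64 and 3.65 ± 0.56 (SD, n = 8 each). The 95% intervals of these differences ran from -0.95 to 0.86, from -1.16 to 0.84 and from -0.84 to 0.59. The brighter probe of Ccl20 was well above background on 0 of 8 BAM arrays of day 180 and on 3 of 8 with ASCs (adjusted p = 0.403, limma), and the dimmer on 1 of 8 in each group, so no fold is given. At day 90 the widest interval was that of Ccl3, from -1.88 to 0.80 around -0.54. The slides of day 90 differed in mean local background, 345.3 with BAM only and 108.2 with ASCs, which bears most on dim probes. The test of a moving difference between day 90 and day 180 called none of the 10, where 9.79% of all probes were called. At an unadjusted p below 0.05 the count was 2 of 10, Ccl5 and Ccl20, beside 38.4% of all probes, and the two-way model called 0.

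Which chemokines went together was read from the 64 arrays after each group's mean was subtracted, so that likeness reflects differences between rats of the same group. These correlations are descriptions, the arrays of a group share a slide, and depth of detection differs between scan dates. Over the 45 pairs of genes Pearson's r had a median of 0.32 and ran from -0.23 to 0.90, with 40 pairs above 0. Ccl2 and Ccl7 were most alike (r = 0.90, Spearman's rho = 0.87), with r = 0.81 over the 32 arrays of days 7 and 30 and 0.92 over the 32 of days 90 and 180. Ccl2 and Ccl3 had r = 0.83 (rho = 0.70), but 0.36 over days 7 and 30 and 0.91 over days 90 and 180, and Ccl3 and Ccl7 had r = 0.75, but 0.26 and 0.84. Without the 2 arrays of day 90 that were low in macrophage markers, which were also the 2 farthest from the median of Ccl2 and Ccl3, these 3 pairs had r = 0.86, 0.76 and 0.59. Ccl4 had r = 0.73 with Ccl3, 0.68 with Ccl2, 0.65 with Ccl5 and 0.64 with Ccl7. Over days 7 and 30 these were 0.62, 0.40, 0.64 and 0.25, and over days 90 and 180 they were 0.82, 0.83, 0.68 and 0.82. Further pairs were Ccl6 and Ccl7 (r = 0.69), Ccl11 and Ccl19 (r = 0.58), and Ccl20 and Ccl22 (r = 0.55). Over days 7 and 30 these had r = 0.41, 0.65 and 0.72, and over days 90 and 180 they had 0.75, 0.50 and 0.24.

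**Figure D3:**
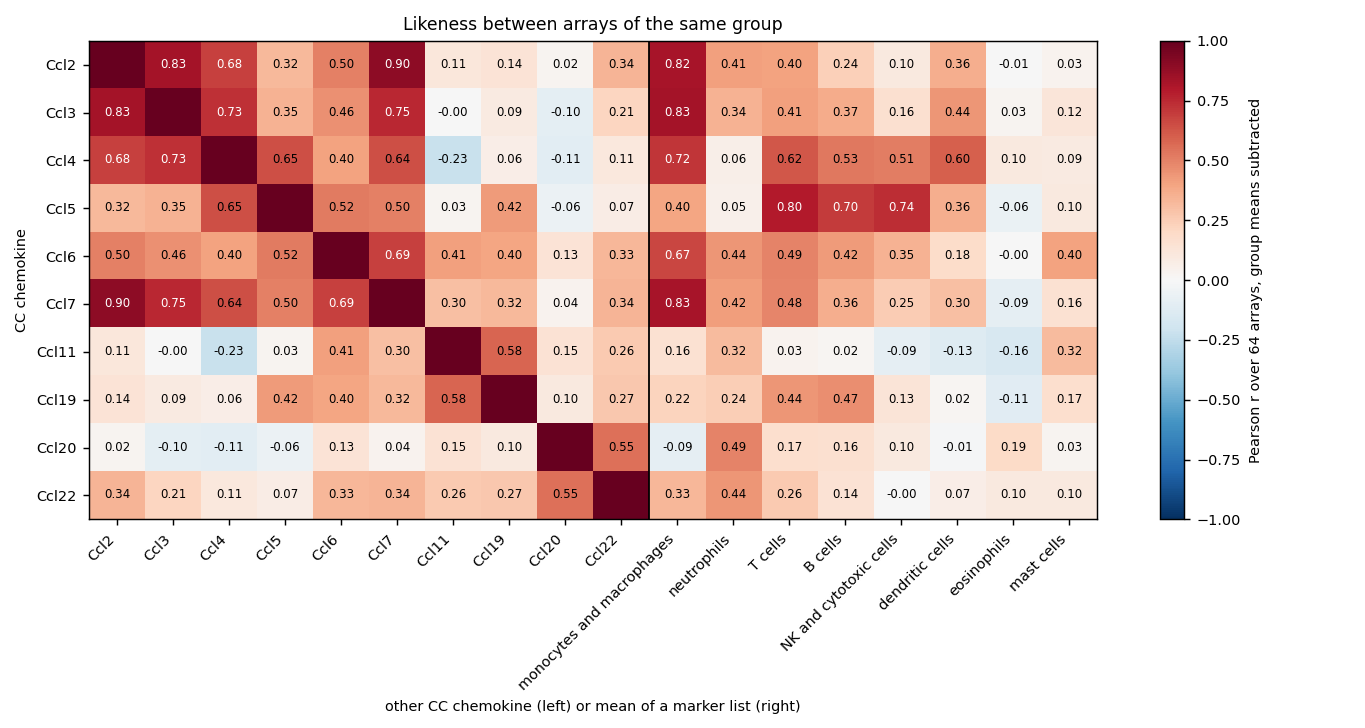
Pearson's r over 64 arrays, after each group's mean was subtracted, between each CC chemokine (rows) and the other CC chemokines (left columns) or the mean of a marker list (right columns). Ccl2, Ccl3 and Ccl7 share their highest values with each other and with monocyte and macrophage markers, from 0.75 to 0.90, whereas Ccl5 has 0.80 with T cell markers.

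The marker lists placed the same genes in different company. With the mean of the 10 monocyte and macrophage markers, r was 0.82 for Ccl2, 0.83 for Ccl3, 0.83 for Ccl7, 0.72 for Ccl4 and 0.67 for Ccl6, and without the 2 arrays low in these markers it was 0.77, 0.73, 0.72, 0.71 and 0.50. Ccl5 had r = 0.80 with T cell markers and 0.74 with NK and cytotoxic markers, beside 0.40 with macrophage markers. Ccl20 and Ccl22 had r = 0.49 and 0.44 with neutrophil markers, and Ccl20 had -0.09 with macrophage markers. The highest r of Ccl11 with any of these 8 leukocyte lists was 0.32. Of single named genes, 11136 were well above background on at least 32 arrays, and the 3 most like each chemokine were taken from them. For Ccl2 these were C5ar1 (0.84), Olr1 (0.83) and Cd53 (0.83), for Ccl3 Lilrb4 (0.92), Pla2g7 (0.90) and Slc11a1 (0.90), and for Ccl7 Ptprc (0.83), Tnfrsf1b (0.82) and Plek (0.82).

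For Ccl4 the nearest genes were Ctsz (0.87), Slc15a3 (0.87) and Fcer1g (0.87), and for Ccl6 Cfp (0.81), Mefv (0.80) and Ms4a6bl1 (0.79). For Ccl5 they were Gzmm (0.94), a granzyme of cytotoxic lymphocytes, Gimap7 (0.90) and Nkg7 (0.89), a protein of cytotoxic granules. Ccl22 was nearest to Ccl17 (0.74), the other ligand of Ccr4, followed by Birc3 (0.67) and Tnfaip2 (0.65). Ccl20 was nearest to Ggt1 (0.72), Tgm1 (0.63), which crosslinks the surface of squamous epithelium, and Cxcl6 (0.62). Ccl11 had Wnt2b (0.66), Prom1 (0.63) and Itgb4 (0.63), and Ccl19 had Dnase1l3 (0.62), Il1b (0.60) and Il16 (0.60).

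The other 10 CC chemokines with a probe were Ccl1, Ccl9, Ccl12, Ccl17, Ccl21, Ccl24, Ccl25, Ccl26, Ccl27 and Ccl28, and none of them was called between grafts at any day (limma). From day 30 to day 90, 2 of the 10 fell with BAM only and 1 with ASCs. Ccl12, a further attractant of monocytes, fell in both, from 0.81 ± 1.00 to -3.06 ± 1.73 with BAM only (log2 difference -3.87, adjusted p = 1.18e-07, limma) and from -0.75 ± 1.32 to -3.50 ± 1.07 with ASCs (-2.75, adjusted p = 0.000125, limma). Ccl9 fell with BAM only, from 3.65 ± 0.63 to 0.49 ± 1.93 (SD, n = 8 each). Higher at day 90 were 5 of the 10 with BAM only and 4 with ASCs, beside 35.3% and 17.8% of all probes called higher and 9.4% and 10.3% called lower. Of these, Ccl24 and Ccl27 were well above background on all 64 arrays, and the calls of Ccl1, Ccl25, Ccl26 and Ccl28 came from probes well above background on at most 2 of 8 arrays in either group of the call. Ccl27, a chemokine of epithelium, rose by 0.85 with BAM only and 0.78 with ASCs on the log2 scale.

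**Figure D4:**
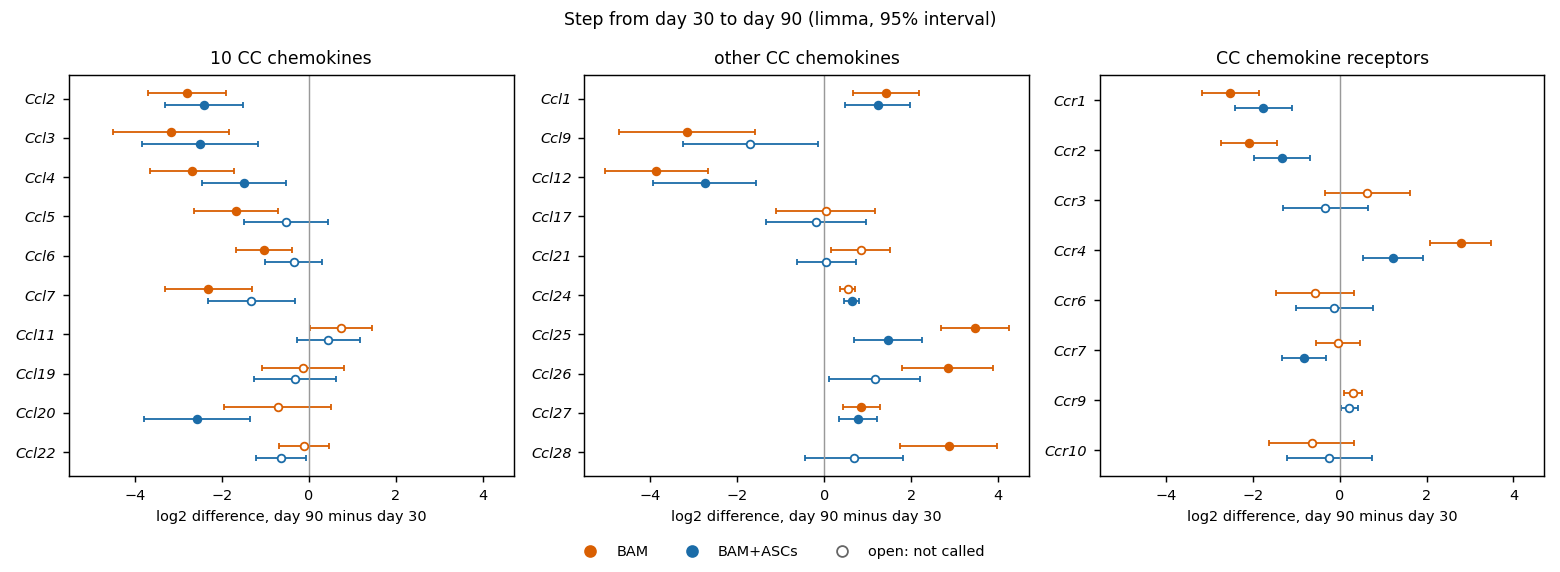
Log2 difference from day 30 to day 90 (x axis) with the 95% interval from limma's standard error for the 10 CC chemokines, 10 other CC chemokines and 8 CC chemokine receptors (y axis), for BAM only and BAM seeded with ASCs (n = 8 arrays per group). Filled points passed the threshold. Ccl2, Ccl3, Ccl4, Ccl12, Ccr1 and Ccr2 are lower at day 90 in both grafts, and this step coincides with the change of scan date.

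Receptors were measured for 8 of 9 genes listed. From day 30 to day 90, Ccr1 and Ccr2 fell in both grafts, and Ccr7 fell with ASCs, so that 2 of 8 fell with BAM only and 3 of 8 with ASCs, beside 9.4% and 10.3% of all probes (limma). Ccr4 was called higher in both grafts, from probe signals well above background on 0 of 8 arrays at day 30 and at most 1 of 8 at day 90. Ccr2, the receptor of Ccl2 and Ccl7, was well above background on all 8 arrays of day 30 and on 0 of 8 of day 90 with BAM only. There it was about 3.82-fold lower (adjusted p = 1.54e-07, limma), a fold limited by background and not a strict bound. With ASCs Ccr2 fell by 1.33 on the log2 scale (adjusted p = 0.000604, limma). Ccr1 fell by 2.52 with BAM only and by 1.76 with ASCs. Ccr6, through which Ccl20 acts, and Ccr3, through which Ccl11 acts, were not called in any comparison of grafts or days.

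Between grafts, 0 of 8 receptors were called at days 7, 30 and 180 and 2 of 8 at day 90, Ccr4 and Ccr7, both lower with ASCs (limma), beside 12.6% of all probes called at day 90. Ccr7 was well above background on 1 of 8 arrays in each group of day 90 and Ccr4 on 1 of 8 with BAM only and 0 with ASCs, so no fold is given. The mean local background at day 90 was 345.3 with BAM only and 108.2 with ASCs, and its part in these calls was not tested. At day 180 Ccr9 differed by 0.42 (adjusted p = 0.00533, limma), under the fold threshold. Ackr2, which removes inflammatory CC chemokines without signaling, was higher at day 30 than at day 7 with ASCs (1.21, adjusted p = 0.00977, limma) and lower again at day 90 (-1.17, adjusted p = 0.00558, limma), when it was well above background on 2 of 8 arrays.

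Of 12 genes listed as inducers of CC chemokines, 3 were called between grafts, all at day 7 and all lower with ASCs (limma), beside 7.75% of all probes called at that day. Il6 differed by -2.20 (adjusted p = 0.00104, limma) and with ASCs exceeded background clearly on 2 of 8 arrays, against 8 of 8 with BAM only, Tlr2, a receptor for bacterial lipoproteins, by -1.03 (adjusted p = 0.00154, limma) and Il13 by -1.13 (adjusted p = 0.00981, limma). Of 6 NF-κB factors and feedback targets with a probe, 1 was called, Icam1 at day 30, which binds leukocytes to endothelium, beside 1.66% of all probes. Icam1 was at 1.93 with BAM only and 1.08 with ASCs, a difference of -0.85 (adjusted p = 0.00440, limma). In the leukocyte marker lists, the genes called between grafts were Csf3r at day 7 and Lyz2, Cd4 and Xcr1 at day 90. Of all probes, 7.75% and 12.6% were called at these days. Csf3r was 1 of 7 neutrophil markers (-1.82, adjusted p = 0.0002, limma). Lyz2 was 1 of 10 monocyte and macrophage markers (0.81, adjusted p = 0.00817, limma). Only 2 of these 10 had a higher mean with ASCs at day 90, and their median difference was -0.24. Cd4 was 1 of 8 T cell markers (-1.01, adjusted p = 0.00628, limma). Xcr1 was 1 of 4 dendritic cell markers (-1.36, adjusted p = 0.00183, limma) and was not well above background on any array of either group.

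Some markers of the wall itself were called between grafts at days when none of the 10 chemokines was. At day 7, 4 of 7 urothelial markers were called higher with ASCs and 6 of 7 had a higher mean, beside 7.75% of all probes called. The 4 were uroplakins of the urothelial surface, Upk1a by 2.36, Upk1b by 1.79, Upk2 by 2.87 and Upk3a by 2.28 on the log2 scale, with adjusted p from 8.87e-05 to 0.000312 (limma). Of 6 endothelial markers, 2 were called lower with ASCs at day 7, Kdr by -0.68 (adjusted p = 0.00303, limma) and Vwf by -0.999 (adjusted p = 1.13e-05, limma). At day 90, 3 of 7 smooth muscle and 3 of 6 fibroblast markers were called higher with ASCs, beside 12.6% of all probes called. They were the smooth muscle genes Myh11 (1.08), Tagln (0.99) and Actg2 (0.99) and the fibroblast genes Col1a1 (0.74), Col1a2 (1.02) and Dcn (0.76), with adjusted p from 1.45e-06 to 0.00504 (limma). The mean was higher with ASCs for 5 of the 7 smooth muscle and 4 of the 6 fibroblast markers. Cdh5, 1 of 6 endothelial markers, was called lower with ASCs at day 90 by -0.87 (adjusted p = 0.00391, limma). The part of these differences in the chemokine levels was not tested.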

How the data were processed

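The authors hybridized total RNA of 64 reconstructed bladder walls to 1-color Agilent rat arrays and deposited the scanner files made with Agilent Feature Extraction, whose processed signal is a background-corrected spot intensity. They also deposited a table of intensities of the same arrays. Here the intensity was divided by the 75th percentile of each array, log2 was taken, spots with outlier flags were left out and spots of 1 probe were averaged. The 8 group means were estimated by limma (version 3.58.1, under R version 4.3.3) for 30367 gene probes, with Benjamini-Hochberg adjustment over all of them, and a probe was called when its adjusted p was under 0.01 and the groups differed over 1.5-fold. Intervals of 95% come from limma's standard errors. The p-values set each difference against the spread between rats of the same group. Each group lay on 1 slide, so that spread does not hold the variation between slides. Probes were named through RefSeq accessions. The 10 genes, marker lists and tests were chosen with earlier results of these data known. Genes were named by rule, namely the 10 members by their brightest probe, the 3 nearest genes of each, the genes of the lists of other CC chemokines and of their receptors, and, of the lists of inducers, NF-κB factors and cell type markers, those called between grafts. For a group whose arrays were all not well above background, each array was set to the larger of its own signal and its lowest signal counted as above background. The fold from these values is not a strict lower bound, since a signal not counted can lie above that lowest signal. The number of arrays limits the precision. Alternatives covered normalization, background correction, dim probes, test, thresholds and arrays left out, and the fits were tested on simulated data. One listed receptor is not reported here.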

Additional observations from a re-analysis of the deposited data

Results flagged for a closer look

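In 80 sets of 8 arrays (10 genes in 8 groups), 4 values, on 3 arrays, stood far from the rest of their group by Dixon's criterion, and chance alone gives about 1 in 20. Ccl3 was at -5.79 on BAM+ASCs replicate 3 of day 90, where the next lowest array was at -1.70, and at -5.23 on BAM replicate 5 of day 90, where the next lowest was at -1.46. Ccl6 was at -1.83 on the same BAM+ASCs array, with the next lowest at 0.48. Ccl11 was at 4.83 on BAM+ASCs replicate 6 of day 180, with the next highest at 3.82. By the dimmer probe of Ccl20, the difference between grafts moved by -2.84 from day 30 to day 90 (adjusted p = 0.00825, limma), but at day 90 this probe was not well above background on any array of either group, so the value is not a measured change of Ccl20.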

How the results depend on the processing

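Of 59 values of the 10 genes followed through 15 alternatives, 3 of them (centring on the median of all probes, and leaving out pairs of arrays of day 30 or day 90) chosen after seeing the data, most kept their direction and call, and the cause of the changes below was not tested. At day 30 the count called between grafts was 1 with outlier spots kept, normexp background correction, dim probes left out, the replicate block or 1 probe per named gene, and 2 at an adjusted p below 0.05 with no fold threshold or centred on the median. From day 7 to day 30 it was 2 with ASCs and 3 with BAM only at an adjusted p below 0.05, where Ccl4 with BAM only (1.39, adjusted p = 0.0323, limma) was added, 0 with ASCs without both day 30 arrays of wide detection, where Ccl6 was lost, and 1 with BAM only under quantile normalization, the replicate block, the two-way ANOVA and median centring. From day 30 to day 90 with ASCs it was 5 at an adjusted p below 0.05, with Ccl7 added, and 2 under normexp and in a separate fit, both of which lost Ccl4 and Ccl20, and from day 90 to day 180 with BAM only it was 1 at an adjusted p below 0.05. The sign turned between grafts at day 90 for Ccl20 under normexp (0.16) and quantile normalization (0.31) and for Ccl7 under quantile normalization (0.013) and median centring (0.050), and at day 180 for Ccl4 under median centring (-0.084). With each array left out in turn, counts ran from 0 to 1 between grafts at day 7, from 0 to 2 at day 30, from 2 to 4 from day 30 to day 90 with ASCs, from 4 to 6 with BAM only, and from 1 to 2 from day 7 to day 30 with BAM only. Differences between grafts that turned sign ran, at day 7, from -0.49 to 0.0038 for Ccl4 and from -0.085 to 0.33 for Ccl5. At day 90 they ran from -1.19 to 0.11 for Ccl3, from -0.49 to 0.43 for Ccl7 and from -0.024 to 0.29 for Ccl11. At day 180 they ran from -0.34 to 0.27 for Ccl2, from -0.012 to 0.91 for Ccl3, from -0.15 to 0.33 for Ccl4, from -0.34 to 0.023 for Ccl6, from -0.43 to 0.12 for Ccl7 and from -0.29 to 0.014 for Ccl11. Arrays of the same replicate number in both grafts had residuals correlated above 0.1 in 3, 3, 2 and 1 of 8 pairs at days 7, 30, 90 and 180. The seeded array was most like the BAM array of its own number in 1, 3, 1 and 1 of 8. These correlations cannot show whether the arrays were paired, so the number entered only as a block in an alternative. With the replicate block Ccl4 passed at day 30 (adjusted p = 0.00986, limma), Ccl20 with BAM only from day 7 to day 30 did not (adjusted p = 0.0124, limma), and no other call changed. Signal over background limits Ccl4 and Ccl20 at days 90 and 180 most.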
